A study of Rattus norvegicus with 2 samples.

Results

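The genes described here are 7 chemokines (Cxcl1, Cxcl2, Cxcl10, Cxcl12, Cxcl16, Ccl2 and Ccl5) and the calgranulins S100a8 and S100a9, measured in rat liver after an oral dose of olive oil. They were picked by name, with the signal differences between these same arrays known, and all 9 were represented, by 11 probe sets of 31042 and out of 14217 genes with a probe set of their own. A probe set is a group of short DNA probes for 1 transcript, and only probe sets annotated to exactly 1 gene were used. RNA came from livers of male Wistar rats, an outbred strain, aged 2 months. The olive oil rats had been fasted for 18 h, were then given 5 ml of olive oil by mouth (16 ml per kg of body weight) and were killed 4 h later. The fasted rats had the same 18 h fast and no oil. Each group was 1 Affymetrix array. The labels do not state how many livers contributed to an array, nor whether the fasted rats were kept without food for the further 4 h. The study asked which liver transcripts differ while meal fat is in the blood.

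Chemokines are small secreted proteins that bind heparan sulfate on vessel walls and steer white blood cells through G protein-coupled receptors. In liver they are made by hepatocytes, Kupffer cells (the resident macrophages), stellate cells and sinusoidal endothelium, and many are switched on by interleukin 1, tumour necrosis factor or interferon through NF-kappaB and STAT factors. S100a8 and S100a9 are calcium-binding proteins that pair to form calprotectin, a zinc- and manganese-binding complex abundant in neutrophils and monocytes. Outside the cell they signal through the receptors Tlr4 and Ager.

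Cxcl1 and the calgranulin pair had higher signals in the olive oil array, Cxcl12 and Cxcl10 had lower ones, and Cxcl16 and Ccl5 were nearly equal. Values are signal intensities on the linear scale of the deposited table. Differences are log2 signal in olive oil minus fasted, with a floor of 12.8, the 25th percentile of the signals, under lower values. Each group being 1 array, no test could be made. The differences compare 2 arrays, a size of 2-fold stands in for a threshold, and the members were chosen with their differences known, so that these are descriptions.

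A signal was called dim where it lay below 43.6, the median of all signals. Of the 9 genes, 5 were above that line on both arrays (Cxcl1, Cxcl12, Cxcl16, Ccl5 and S100a9). Another 2 crossed it, with Cxcl10 dim in the olive oil array and S100a8 dim in the fasted array. Cxcl2 and Ccl2 were dim on both. By mean signal, 6 genes reached the median of all probe sets and are called measured, whereas Cxcl2, Cxcl10 and Ccl2 did not. S100a8 is only just among the measured genes, at the 53.2nd percentile of brightness, and it reached that level through its signal in the olive oil array.

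**Figure D1:**
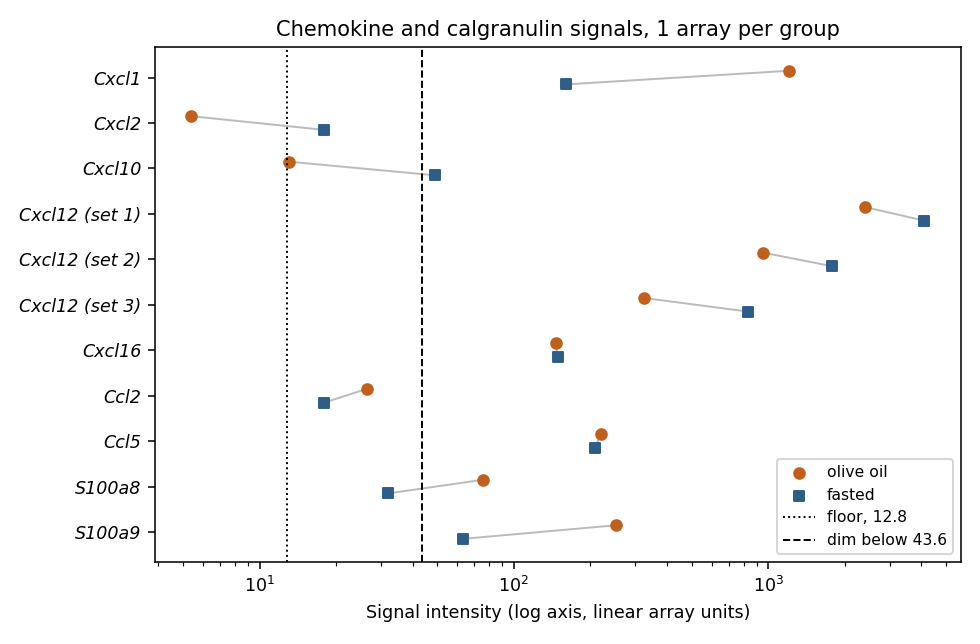
Signal intensity (log axis) of the 11 probe sets of the 9 genes, with circles for the olive oil array and squares for the fasted array, 1 array each. The dotted line is the floor of 12.8 and the dashed line the dim limit of 43.6. Cxcl1, S100a8 and S100a9 lie to the right in olive oil, the 3 probe sets of Cxcl12 to the left, and Cxcl2 and Ccl2 stay left of the dashed line.

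On their brightest probe sets, 3 of the 6 measured genes were higher in olive oil by 2-fold or more (Cxcl1, S100a9 and S100a8) and 0 were lower by that much. Among all 9209 measured genes, 3.21% were higher by 2-fold or more and 2.92% lower by as much, 6.14% together, and the median log2 difference was -0.015. Counting all 9 genes whatever their brightness added Cxcl10 to the lower side. Without a filter on brightness, 5.64% of the 14217 genes were higher by 2-fold or more and 4.78% lower by as much, 10.4% together. Nothing is read from these counts against the background, because the difference between the arrays was known when the genes were picked.

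Promoter sequences are shown for 5 genes that differ in direction or in brightness, because the neighbouring pair Cxcl1 and Cxcl2 and the lower genes Cxcl10 and Cxcl12 set different upstream regions side by side. Of the 9 genes, 6 had an entry in the RefSeq promoter table of build GRCr8. Each sequence below is the 250 bases before the annotated transcript start, 5′ to 3′ in the direction of the gene. Capitals mark matches, on either strand, to the degenerate NF-kappaB consensus, the interferon-stimulated response element or the TATA box (TATAAA). These motifs were chosen with the sequences in view.
Cxcl1, chr14:17479322-17479571, minus strand: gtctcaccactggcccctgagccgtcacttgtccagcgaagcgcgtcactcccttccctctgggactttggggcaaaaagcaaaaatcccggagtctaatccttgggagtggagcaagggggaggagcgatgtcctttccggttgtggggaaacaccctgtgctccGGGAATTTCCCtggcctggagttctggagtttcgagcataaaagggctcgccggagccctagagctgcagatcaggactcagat
Cxcl2, chr14:17467256-17467505, minus strand: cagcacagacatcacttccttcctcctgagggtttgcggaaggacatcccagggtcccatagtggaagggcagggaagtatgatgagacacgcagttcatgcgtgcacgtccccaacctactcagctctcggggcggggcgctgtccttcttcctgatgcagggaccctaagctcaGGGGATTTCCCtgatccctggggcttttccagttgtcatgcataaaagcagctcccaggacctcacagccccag
Cxcl10, chr14:15988816-15989065, plus strand: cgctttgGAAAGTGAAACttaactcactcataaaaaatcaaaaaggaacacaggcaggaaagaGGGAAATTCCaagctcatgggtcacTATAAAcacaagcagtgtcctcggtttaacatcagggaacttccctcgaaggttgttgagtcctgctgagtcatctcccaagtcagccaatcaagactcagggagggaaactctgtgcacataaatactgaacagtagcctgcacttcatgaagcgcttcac
Cxcl12, chr4:152060531-152060780, plus strand: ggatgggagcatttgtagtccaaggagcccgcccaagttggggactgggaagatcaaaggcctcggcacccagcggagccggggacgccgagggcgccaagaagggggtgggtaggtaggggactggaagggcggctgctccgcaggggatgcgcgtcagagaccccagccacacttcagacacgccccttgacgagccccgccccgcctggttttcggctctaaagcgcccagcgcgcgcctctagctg
S100a9, chr2:178490623-178490872, minus strand: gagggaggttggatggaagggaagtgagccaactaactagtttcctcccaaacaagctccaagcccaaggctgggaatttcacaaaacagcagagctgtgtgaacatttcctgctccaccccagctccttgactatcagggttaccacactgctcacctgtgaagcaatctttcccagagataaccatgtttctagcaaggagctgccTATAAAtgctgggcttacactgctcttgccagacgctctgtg

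The NF-kappaB consensus was found in 3 of the 6 promoter windows, those of Cxcl1, Cxcl2 and Cxcl10, and in 3.54% of 33469 rat windows of the same length. In Cxcl1 it began 84 bases before the start, with an overlapping match on the other strand 1 base further on. In Cxcl2 the overlapping matches on both strands began 74 bases before the start, and in Cxcl10 a match began 187 bases before it. Cxcl10 was the one window of the 6 with the interferon-stimulated response element, 243 bases before its start, and 1.69% of all windows held that element. The TATA box letters were found in Cxcl10, 162 bases before the start, in S100a9, 42 bases before it, and in 12.9% of windows. Only the exact letters TATAAA were searched for, so that near matches are not marked, in the Cxcl10 window as in others. None of the 3 motifs was found in Cxcl12, whose window was 67.6% G and C, or in Cxcl16. Cxcl1, Cxcl2 and Cxcl10 thus share the NF-kappaB letters. Cxcl1 was higher in olive oil, Cxcl10 was lower but not measured, and the part of NF-kappaB in these signals was not tested. A match is a run of letters and not a measured binding site.

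Cxcl1, known in the rat as CINC-1 and a chemoattractant for neutrophils through the receptor Cxcr2, showed the largest difference of the 9 genes. Its signal was 1208.3 in the olive oil array, against 160.3 in the fasted array. Both signals were far above the dim limit. It was 7.54-fold higher in olive oil, a log2 difference of 2.91, and stood 7th from the top of the 9209 measured genes. Of 2226 probe sets within 0.5 log2 units of its mean signal, 2.56% were at least 2-fold higher in olive oil. Over 10 other ways of handling the signals, including the array scaling and the floor, its log2 difference lay between 2.80 and 2.93.

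Cxcl2, the neighbouring gene on chromosome 14 and also a neutrophil attractant that acts through Cxcr2, was dim throughout. Its signal was 5.4 in olive oil, below the floor, and 17.9 in the fasted array. The log2 difference was -0.48 with the olive oil value at the floor, -1.73 with no floor and 0 with the floor at the median, so that its size cannot be read from these arrays. The direction of Cxcl1 was therefore not seen in its neighbour, at signals where the array gives little information on Cxcl2.

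Cxcl10, the interferon-induced ligand of Cxcr3 that attracts activated T cells, was lower in olive oil, where it was dim, and it was not measured. Its signal was 13 in the olive oil array, just above the floor, and 49.1 in the fasted array. This was 3.78-fold lower, a log2 difference of -1.92, which became -1.17 with an offset of 16 added to every signal and -0.17 with the floor at the median. Of the 5548 probe sets within 0.5 log2 units of its mean signal, 19.2% were at least 2-fold lower in olive oil. Among all genes the figure was 4.78%.

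Cxcl12, the ligand of Cxcr4 and Ackr3 that retains stem cells and lymphocytes in tissues and is made by stromal and endothelial cells, was lower in olive oil on each of its 3 probe sets, all of them far above the dim limit. The brightest set had 2410.1 in olive oil and 4116.4 in the fasted array, 1.71-fold lower. The second had 951.5 in olive oil and 1783.2 in the fasted array, 1.87-fold lower. The third had 325.4 in olive oil and 835.2 in the fasted array, 2.57-fold lower.

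The log2 differences of these 3 probe sets were -0.77, -0.91 and -1.36, with a mean of -1.01 ± 0.31 (SD over probe sets of the same 2 arrays, not over animals). Probe sets of 1 gene scattered with a pooled SD of 0.35 over 2290 genes with several measured sets. Represented by its brightest set, Cxcl12 fell short of 2-fold and stood 525th from the bottom of 9209 measured genes. Represented by the mean over its sets, it was 2.02-fold lower. Of probe sets within 0.5 log2 units of the mean signal of the brightest Cxcl12 set, 1.48% were at least 2-fold lower, a size that this set did not reach. The share was 2.20% near the second set, which did not reach it either, and 2.61% near the third set, which did.

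**Figure D2:**
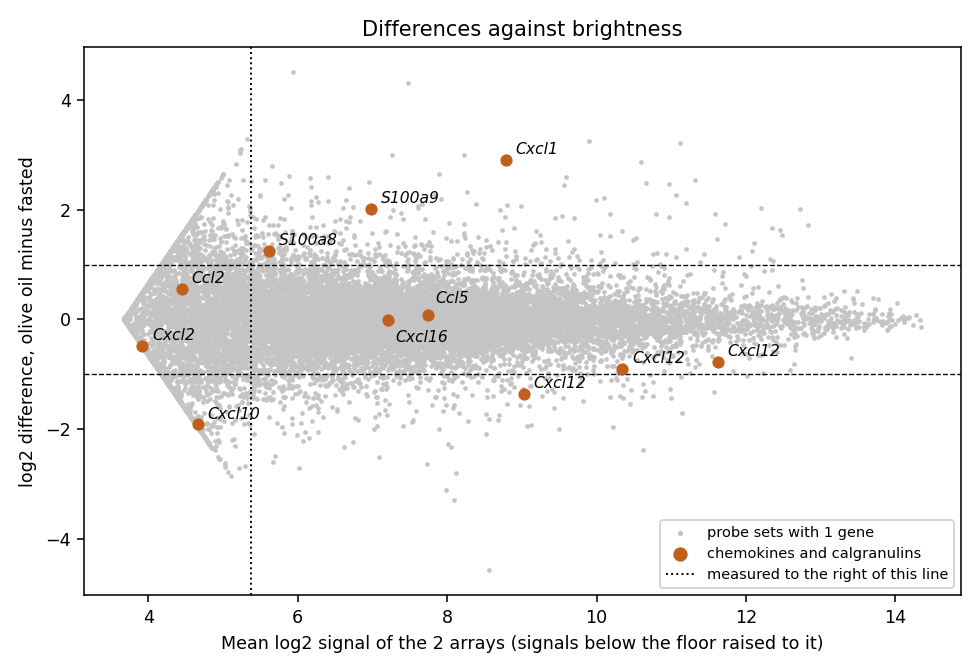
Log2 difference in signal, olive oil minus fasted, against the mean log2 signal of the 2 arrays for each probe set with 1 gene (grey) and for the 11 chemokine and calgranulin probe sets (orange). Dashed lines mark 2-fold and the dotted line the lower limit for measured probe sets. Cxcl1 and S100a9 lie above the bulk of equally bright probe sets, whereas Cxcl10 and Cxcl2 lie on the edge that the floor sets at the dim end.

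Cxcl16 is made as a membrane-bound protein that takes up oxidised lipoproteins, and once shed it attracts T and NKT cells through Cxcr6. Its signal was 146.3 in olive oil and 148.5 in the fasted array, a log2 difference of -0.02. Ccl5, a T cell and monocyte attractant known as RANTES, stood at 219.8 in olive oil and 208.1 in the fasted array, with a log2 difference of 0.08. Both genes lay above the dim limit on both arrays and within 1.5-fold. The log2 difference stayed between -0.09 and -0.0068 for Cxcl16 and between 0.0061 and 0.10 for Ccl5 over the 10 alternatives.

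Ccl2, known as MCP-1 and the main monocyte attractant through Ccr2, was dim on both arrays. It had a signal of 26.4 in olive oil and 18.0 in the fasted array. The log2 difference of 0.55 went to 0 with the floor at the median. Of the 6393 probe sets near its mean signal, 18.3% were at least 2-fold higher, a size that Ccl2 did not reach.

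The calgranulins, which lie side by side on chromosome 2, were both higher in the olive oil array. S100a9 had a signal of 253.1 in olive oil and 62.9 in the fasted array, 4.02-fold higher, a log2 difference of 2.01. It stood 39th from the top of the 9209 measured genes, and its log2 difference lay between 1.77 and 2.02 under the alternatives. Of 3534 probe sets of like signal, 3.14% were at least 2-fold higher.

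S100a8, its partner in calprotectin, had a signal of 75.7 in olive oil and 32.0 in the fasted array, where it was dim. It was 2.37-fold higher, a log2 difference of 1.24, or 157th from the top. Among 3949 probe sets of like signal 7.37% were at least 2-fold higher. The difference was 0.80 with the floor at the median and 0.93 with the offset, under 2-fold in both cases. The log2 difference of S100a9 exceeded that of S100a8 by 0.77.

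**Figure D3:**
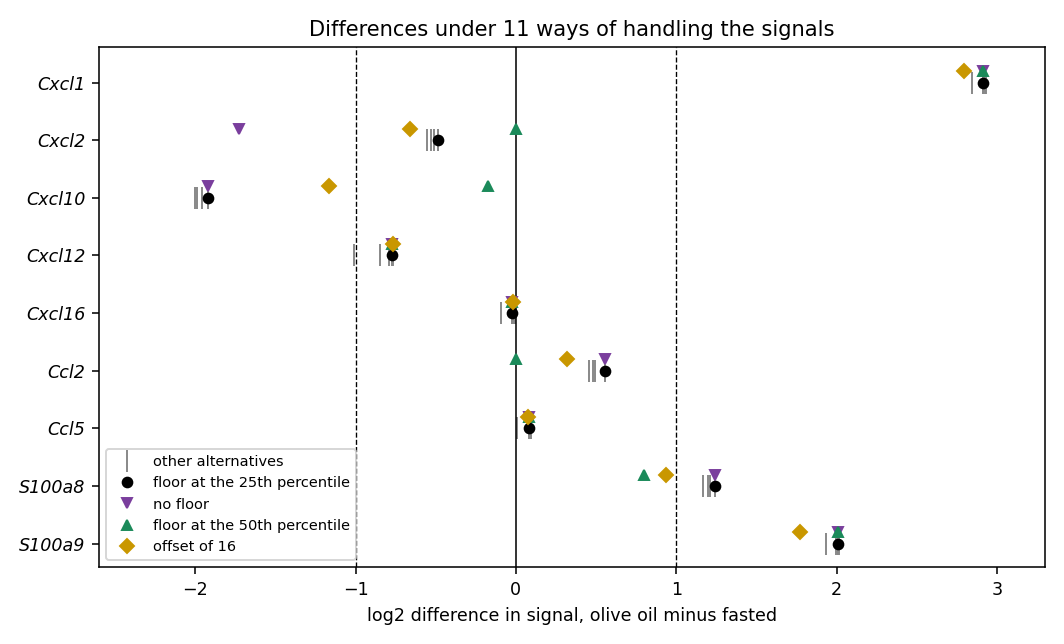
Log2 difference in signal, olive oil minus fasted, of each gene under 11 ways of handling the signals. Black circles are the values with the floor at the 25th percentile, coloured symbols the other floors and the offset, grey ticks the other alternatives, and dashed lines mark 2-fold. Cxcl1, Cxcl12, Cxcl16, Ccl5 and S100a9 keep their place, while Cxcl2, Cxcl10, Ccl2 and S100a8 move with the floor.

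Other chemokine ligands mostly lay within 1.5-fold. Of 28 listed, 24 were on the array and 11 were measured. Of these, 2 were higher by 1.5-fold or more, 1 was lower by as much and 8 lay between, and the median log2 difference was -0.25. Over all 24, dim ones included, it was 0.0052. Among all measured genes, 9.44% were higher by 1.5-fold or more and 10.1% lower by as much. The lower one was Cxcl11, the neighbour of Cxcl10 and also an interferon-induced Cxcr3 ligand, with 534.5 in olive oil and 952.1 in the fasted array, 1.78-fold lower. Cxcl9, the third Cxcr3 ligand and the neighbour of Cxcl10 on its other side, named after its values were seen, had 208.8 in olive oil and 193.1 in the fasted array. Its second probe set had 197.7 in olive oil and 160.9 in the fasted array. Of the 3 ligands of that receptor, Cxcl11 was thus lower, Cxcl10 was lower but not measured and Cxcl9 lay within 1.5-fold.

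Ccl24, an eosinophil attractant, had 83.2 in olive oil and 54.8 in the fasted array, 1.52-fold higher. Cxcl14 had 62.2 in olive oil and 41.4 in the fasted array, with a second, unmeasured probe set at -1.06 on the log2 scale, the other direction. Ccl27 had 74.6 in olive oil and 93.6 in the fasted array. Ccl9 and Ccl6, bright ligands named after their values were seen, had 7420.6 in olive oil and 9044.7 in the fasted array for Ccl9, and 2846.2 in olive oil and 2825.8 in the fasted array for Ccl6.

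Most chemokine receptors were dim, and the 4 measured ones had higher signals in olive oil, with Cxcr4 and Cxcr5 dim in the fasted array and measured only through the olive oil array. Of 23 listed, 17 were on the array and 4 measured, of which 3 were higher by 1.5-fold or more and 0 lower by as much. Among all measured genes, 9.44% were higher and 10.1% lower by that much. The median log2 difference of the 4 receptors was 0.86, or 0.60 when the probe sets of a gene were averaged. Over all 17, dim ones included, the median was 0. Cxcr4, the signalling receptor of Cxcl12, had 73.7 in olive oil and 35.6 in the fasted array, 2.07-fold higher. Its other 2 probe sets had 63.4 in olive oil and 31.7 in the fasted array, and 48.9 in olive oil and 21.1 in the fasted array. The suffixes of all 3 mark them as able to bind several transcripts. Ackr3, which binds Cxcl12 and removes it, had 98.9 in olive oil and 56.7 in the fasted array, 1.74-fold higher.

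Cxcr5, the receptor of B cells for Cxcl13, had 77.9 in olive oil and 41.0 in the fasted array, while its second, unmeasured probe set went the other way, with 30.9 in olive oil and 34.7 in the fasted array. Ackr4, a scavenger of CC chemokines, had 155.3 in olive oil and 117.7 in the fasted array. The receptor of Cxcl1, Cxcr2, had 13.6 in olive oil and 1.3 in the fasted array, and the receptor of Ccl2, Ccr2, had 2.7 in olive oil and 4.1 in the fasted array. Both were named after their values were seen, and neither was measured.

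Most other measured S100 genes lay within 1.5-fold. Of 14 listed, 12 were on the array and 6 measured. Of all measured genes, 9.44% were higher by 1.5-fold or more and 10.1% lower by as much. Of the 6 S100 genes, 1 was higher and 0 lower by that much, with a median log2 difference of 0.03. The higher one was S100a10, the partner of annexin A2, at 382.2 in olive oil and 211.0 in the fasted array. S100a4 had 43.2 in olive oil and 60.3 in the fasted array, S100a13 had 110.3 in olive oil and 98.5 in the fasted array, and S100a6 had 93.0 in olive oil and 87.0 in the fasted array. These 3 lay within 1.5-fold. S100b, unmeasured and named after its values were seen, had 34.2 in olive oil and 5.5 in the fasted array, below the floor there, a log2 difference of 1.42 that is larger than that of S100a8. S100g, also unmeasured and named after its values were seen, went the other way, with 16.4 in olive oil and 35.6 in the fasted array, a log2 difference of -1.12. With the floor at the median, S100a8 (0.80) came below S100a10 (0.86).

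Among 8 genes that receive calgranulins or process chemokines, 6 were measured, with 1 higher by 1.5-fold or more, 0 lower by as much and a median log2 difference of -0.23. Over all measured genes, 9.44% were higher and 10.1% lower by that much. Myd88, the adaptor of Tlr4 and of the interleukin 1 receptor, had 1352.3 in olive oil and 694.5 in the fasted array, 1.95-fold higher. Adam10, which sheds Cxcl16 from the cell surface, had 80.7 in olive oil and 117.1 in the fasted array. Adam17, a related sheddase, had 190.7 in olive oil and 267.8 in the fasted array, and Ly96, the partner of Tlr4, had 132.7 in olive oil and 158.3 in the fasted array. Of the calgranulin receptors, named after their values were seen, Tlr4 was not measured, with 24.4 in olive oil and 44.9 in the fasted array. Ager was below the floor on both arrays.

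Genes that induce or restrain chemokine transcripts went both ways. Of 30 listed, 27 were on the array and 24 measured, of which 8 were higher by 1.5-fold or more, 3 lower by as much and 13 between, where 9.44% of all measured genes were higher and 10.1% lower by that much. The median log2 difference was 0.13. Il1r1, the receptor of interleukin 1, had 4902.7 in olive oil and 1121.7 in the fasted array, and its 3 probe sets were higher by 1.83 to 2.13 on the log2 scale. Stat3, the factor that carries interleukin 6 signals, had 2254.0 in olive oil and 592.6 in the fasted array, 3.80-fold higher, with a second probe set at 1.88 on the log2 scale. Nfkbiz, a nuclear partner of NF-kappaB, had 679.6 in olive oil and 280.4 in the fasted array. Its second, unmeasured probe set was dim and went the other way, with 18.1 in olive oil and 21.7 in the fasted array. Cebpb, a factor of the acute phase response, had 3668.7 in olive oil and 1514.5 in the fasted array. On their brightest probe sets, Nfkbiz and Cebpb were each 2.42-fold higher.

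The fifth gene at least 2-fold higher, a size that 3.21% of all measured genes reached, and named after its values were seen, was Nfkbia, the NF-kappaB inhibitor that NF-kappaB itself induces, with 655.8 in olive oil and 296.0 in the fasted array. The 3 genes at least 1.5-fold lower, also named after their values were seen, included the interferon factors Irf1 and Irf7. Irf1 had 238.8 in olive oil and 402.1 in the fasted array, Irf7 had 198.8 in olive oil and 326.3 in the fasted array, and the third was the phosphatase gene Dusp1. Of the cytokine genes, named after their values were seen, Il1a and Il1b were measured. Il1b, the interleukin 1 beta gene, had 56.4 in olive oil and 83.7 in the fasted array, and Il1a had 247.4 in olive oil and 302.6 in the fasted array. Tnf and Il6 were not measured, with 16.0 in olive oil and 22.3 in the fasted array for Tnf and 14.9 in olive oil and 10.1 in the fasted array for Il6.

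**Figure D4:**
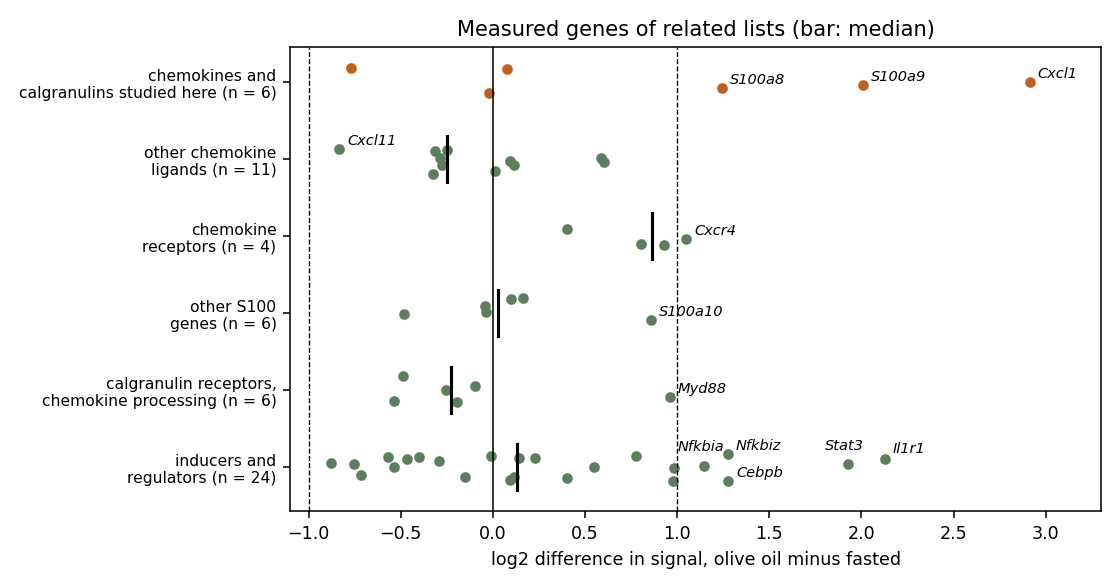
Log2 difference in signal, olive oil minus fasted, of each measured gene of the chemokine and calgranulin set (orange) and of 5 related lists (green), with the median of each related list as a bar and 2-fold as dashed lines. Genes at least 2-fold apart, or the largest of a list, are named. The bulk of related ligands and S100 genes lies between the dashed lines, and 5 inducers and regulators lie to the right.

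Neutrophil markers were at the limit of what the arrays show and went both ways. Of 16 markers listed, 9 were on the array and 2 measured, and the median log2 difference over the 9 was 0. The marker genes named in this and the next paragraphs were picked after their values were seen. Lcn2, a neutrophil granule protein that hepatocytes also make in the acute phase, had 106.2 in olive oil and 55.4 in the fasted array. Ncf1, a subunit of the phagocyte oxidase, had 50.7 in olive oil and 35.3 in the fasted array, where it was dim. These 2 measured markers were higher in olive oil, and Ncf1 was measured only through its signal in the olive oil array. Fcnb had 4.3 in olive oil and 18.7 in the fasted array, and Mmp9 had 12.0 in olive oil and 17.4 in the fasted array, both lower in olive oil. Mmp8 had 19.8 in olive oil and 0.8 in the fasted array, and Cxcr2 had 13.6 in olive oil and 1.3 in the fasted array. Both were higher in olive oil and below the floor in the fasted array. All but Lcn2 and Ncf1 were dim on both arrays, and 3 of these 7 (Csf3r, Camp and Np4) were below the floor on both. The sum of the 9 signals was 225.3 in olive oil and 144.5 in the fasted array, a gap of which Lcn2 makes up the larger part, and no marker was listed at 0. The part of neutrophils in the signals of S100a8, S100a9 and Cxcl1 was not tested. In bulk liver RNA, more cells of a type and more RNA per cell cannot be told apart.

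Of the Kupffer cell and monocyte markers, the measured ones were bright and nearly equal. Of 14 listed, 11 were on the array and 9 measured, all 9 within 1.5-fold, with a median log2 difference of -0.0068. The summed signal of the 11 was 7968.9 in olive oil and 8181.6 in the fasted array. Clec4f, specific to Kupffer cells, had 1882.1 in olive oil and 1552.1 in the fasted array, Adgre1, a macrophage receptor with the largest difference of the 9, had 119.1 in olive oil and 156.6 in the fasted array, and the monocyte markers Itgam and Ccr2 were below the floor on both. T and NK cell markers summed to 299.2 in olive oil and 349.0 in the fasted array over 10 genes, of which 3 were measured. The 3 measured ones summed to 180.1 in olive oil and 193.8 in the fasted array, and the rest of the gap lay in unmeasured genes. The 2 B cell markers on the array were dim, with a sum of 25.5 in olive oil and 30.4 in the fasted array.

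Cells that make Cxcl12 in liver were represented by markers of stellate cells and sinusoidal endothelium, which went both ways. The 7 stellate cell markers, all measured, summed to 3295.4 in olive oil and 3113.6 in the fasted array, with Dcn higher by 1.5-fold or more (363.6 in olive oil and 202.7 in the fasted array) and Lrat lower by as much (122.0 in olive oil and 183.6 in the fasted array). The 5 endothelial markers, all measured, summed to 5829.3 in olive oil and 5250.9 in the fasted array. Lyve1 carried this gap, with 2741.1 in olive oil and 1798.1 in the fasted array, while Kdr had 966.0 in olive oil and 1408.8 in the fasted array and Stab2 had 437.7 in olive oil and 507.6 in the fasted array. Hepatocyte markers checked the tissue. Albumin (Alb) had 17983.9 in olive oil and 17154.4 in the fasted array, and 6 of 7 hepatocyte genes lay within 1.5-fold, the exception being the glucocorticoid-induced Tat. Bile duct markers were few, 4 on the array with a sum of 218.4 in olive oil and 285.9 in the fasted array, and 3 erythroid markers summed to 9062.4 in olive oil and 9353.3 in the fasted array.

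**Figure D5:**
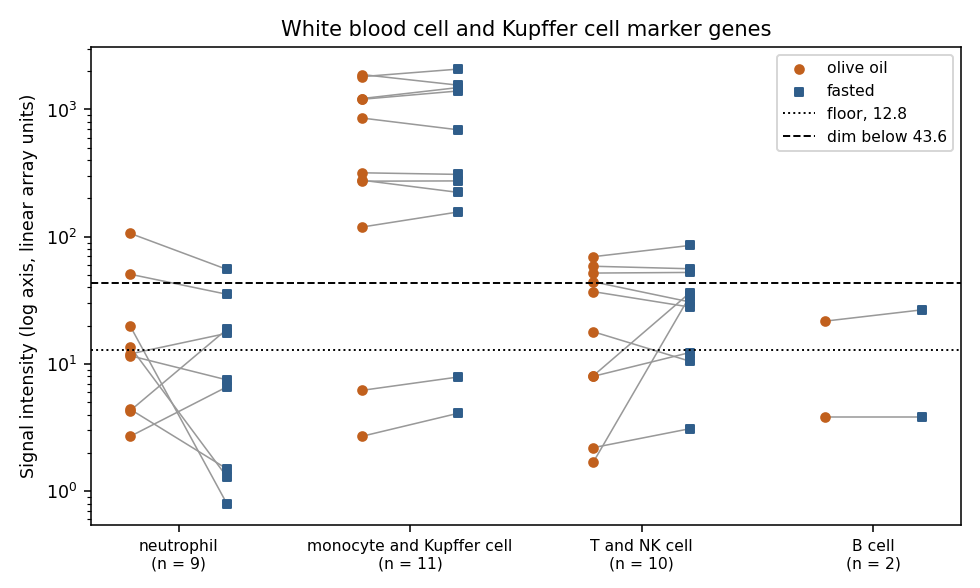
Signal intensity (log axis) of marker genes of neutrophils, monocytes and Kupffer cells, T and NK cells and B cells in the olive oil array (circles) and the fasted array (squares), with a line for each gene. The dotted line is the floor of 12.8 and the dashed line the dim limit of 43.6. Kupffer cell markers lie well above both lines with nearly level connections, and 7 of 9 neutrophil markers lie below the dim limit on both arrays.

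The arrays were alike in overall brightness, with a median signal of 44.7 in olive oil and 42.5 in fasted. Bacterial spike-in transcripts differed by -0.18 to 0.18 on the log2 scale over 18 probe sets. The 3′ to 5′ signal ratio of the beta-actin transcript, which increases as RNA is degraded, was 3.20 in olive oil and 2.63 in fasted, and that of Gapdh was 1.34 in olive oil and 1.28 in fasted. The part of this difference in the chemokine values was not tested.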

How the data were processed

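Liver RNA was measured on 2 Affymetrix rat arrays, 1 per group, grouped by sample title. The authors deposited 1 linear intensity for each probe set and array, and the tool was Affymetrix Expression Console, per the submitters' processing notes. For its algorithm and scaling, the sources used here give nothing. The mean signal after trimming 2% at each end was 200.1 on both arrays, so a common scaling had been applied. Such a scaling takes the bulk of transcripts as equal, and dim values are noisy.

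From these values, the 57 control probe sets were set aside, signals below the 25th percentile (12.8) were raised to it and log2 was taken. A probe set was measured where its mean log2 signal reached the median of 5.37 (a signal of 41.4), which left 15521. Platform annotation named 20826 probe sets with 1 gene, 436 with several and 9780 with none. Symbols of 20758 were taken from RefSeq (GRCr8) through the gene ID. The brightest probe set stood for a gene. How precise the values are is limited by having 2 arrays.

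The members and lists were chosen with earlier results of these data known. The rule for named genes took all 9 members and up to 4 measured genes of largest difference per list. Others are marked as named after their values were seen. The functions were tested on simulated data. Alternatives were array centring, quantile and loess normalization, other floors, an offset, other filters and thresholds, the mean over probe sets, and dropping probe sets whose suffix marks shared transcripts. Python 3.11.15, numpy 2.4.6, pandas 2.3.3, statsmodels 0.14.6 and matplotlib 3.10.9 were used.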

Additional observations from a re-analysis of the deposited data

How the results depend on the processing

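No paired analysis was possible because each group had 1 array, and no array could be left out. Under 10 alternatives the log2 differences of Cxcl1, Cxcl12, Cxcl16, Ccl5 and S100a9 moved by less than 0.35, the SD between probe sets of a gene, although Cxcl12 crossed 2-fold, at -1.01, with the mean over probe sets. The genes that were dim on either array moved. When the floor was the 50th percentile, the difference was 0 for Cxcl2, -0.17 for Cxcl10, 0 for Ccl2 and 0.80 for S100a8. It was -1.73 for Cxcl2 with no floor, and -1.17 for Cxcl10 and 0.93 for S100a8 with the offset. The floor itself accounts for the values of 0, since both signals lay below it.

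The count of measured genes 2-fold or more higher in olive oil was 296, and of those lower by as much 269. These counts were 802 and 680 with no filter on dim probe sets, 132 and 108 with the filter at the 75th percentile, 869 and 931 at 1.5-fold, 73 and 49 at 3-fold, and 245 and 330 after centring each array on its median. The median log2 difference of the chemokine receptors was 0 with no filter (17 genes), and that of other S100 genes was 0.41 with the filter at the 75th percentile (2 genes). The medians of the other 3 related lists moved by less than 0.35. Variation between rats cannot be had from these arrays.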

Other observations

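Cxcl3, a close relative of Cxcl1 and Cxcl2 that also attracts neutrophils, was represented by 5 probe sets, none of them measured. The brightest had 15.9 in olive oil and 35.3 in the fasted array, a log2 difference of -1.15. A second had 29.1 in olive oil and 18.8 in the fasted array, a difference of 0.63, and the others were at 0.55, 0 and 0. The probe sets of Cxcl3 thus went in different directions in the dim range.

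Several unmeasured chemokine genes differed by 2-fold or more, with Cxcl3 lower on its brightest set and others higher. Of the 5548 probe sets near the mean signal of Cxcl10, 42.2% were at least 2-fold apart in either direction. Nothing is read from differences in that range. Ccl21, a lymph node chemokine, had 69.9 in olive oil and 6.9 in the fasted array, below the floor there. Ppbp, a platelet chemokine, had 50.5 in olive oil and 17.4 in the fasted array, whereas Pf4, the other platelet chemokine, was measured and had 114.6 in olive oil and 107.3 in the fasted array. These genes and Cxcl3 were named after their values were seen.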
